A study of Homo sapiens with 6 samples.

Results

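The HOX gene clusters were described in 22Rv1, a human prostate carcinoma cell line, by comparing cells derived from a liver metastasis (LV, 3 libraries) with the parental control cells (WT, 3 libraries). The members were all genes whose symbol is HOXA, HOXB, HOXC or HOXD followed by digits alone, with HOXB13 left out, which gave 38 of the 57500 genes counted: 11 HOXA, 9 HOXB, 9 HOXC and 9 HOXD genes. Both groups carry the same 22Rv1 background, and their labels give the same serum-supplemented RPMI medium and no treatment. The libraries were polyA-selected, so the values are levels of polyadenylated RNA. The series design text calls the libraries biological replicates, but the labels do not say what separates them, how many metastases or clones the LV cells stem from or which host they grew in. The p-values therefore measure the spread between these libraries, and nothing in the labels shows that a second liver derivation was sampled.

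HOX genes encode homeodomain transcription factors that give cells their position along the body axis. They lie in 4 clusters, and within a cluster genes nearer the 3′ end are generally used earlier and further toward the head, while genes at the 5′ end, the posterior HOX genes, pattern the limb tips and the urogenital tract, from which the prostate develops. Genes of the same number in different clusters, the paralogs, descend from a shared ancestor and resemble each other most closely. Polycomb proteins hold silent HOX genes in a repressed state, Trithorax proteins keep active ones on, retinoic acid induces genes of the 3′ end in embryos and cultured cells, and TALE proteins such as PBX and MEIS bind DNA together with HOX proteins.

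The files held gene-level read counts, with totals of 28395265 to 53275252 per library, and the authors' TPM values, which are levels per transcript length and library depth. CPM values below are read counts scaled to library depth with TMM factors, without regard to length. WT replicate 2 stood apart from the other WT libraries over all genes: the chi-square per degree of freedom was 55.3 and 61.8 in its pairs, against 2.24 for WT replicates 1 and 3 and 2.45 to 3.15 among the LV libraries. The 7 prostate luminal markers summed to 3061 to 3124 CPM in LV and 2736 to 2995 CPM in WT, with 3 of them higher and 3 lower in LV at an adjusted p under 0.05 by edgeR's quasi-likelihood test (log2 fold changes from -3.18 to 0.80). The summed level of 6 hepatocyte markers was 65.1 to 68.5 CPM in LV and 41.6 to 52.3 CPM in WT, nearly all of it ALB. Both tested hepatocyte markers were higher in LV, ALB (log2 fold change 0.46, SE 0.0984, adjusted p = 0.00537) and APOA1, which had 0.689, 0.536 and 0.659 CPM in the LV libraries, against 0.123, 0.2202 and 0.208 CPM in the WT libraries (log2 fold change 1.78, SE 0.31, adjusted p = 0.00167), while APOA2, TTR, SERPINA1 and FGB were not tested and stayed at or under 0.352 CPM in every library. The 5 fibroblast markers summed to 20.0 to 21.2 CPM in LV and 20.9 to 24.5 CPM in WT, most of it COL1A1, which did not pass. Of the 4 fibroblast markers tested, 2 were lower in LV: LUM averaged 0.0673 ± 0.0662 CPM in LV and 1.75 ± 0.244 CPM in WT (log2 fold change -4.92, SE 0.40, adjusted p = 1.81e-05) and COL3A1 averaged 0.789 ± 0.257 CPM in LV and 1.66 ± 0.0491 CPM in WT (log2 fold change -1.13, SE 0.22, adjusted p = 0.00371). The 3 leukocyte markers summed to 1.26 to 2.58 CPM in LV and 1.03 to 1.38 CPM in WT, with CD3E at 0 counts throughout, CD14 at 9 to 11 counts in LV and 6 to 18 counts in WT, and PTPRC at 52 to 61 counts in LV and 39 to 57 counts in WT. The 3 endothelial markers summed to 0.402 to 0.501 CPM in LV and 0.379 to 0.638 CPM in WT, with CDH5 at 0 counts throughout and PECAM1 at 14 to 20 counts in LV and 19 to 29 counts in WT. No leukocyte or endothelial marker passed the test, and the part of other cell types in the HOX values was not tested.

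Most HOX changes were decreases in LV, and the largest were those of HOXA13 and HOXA11 at the 5′ end of HOXA and of HOXC12 in HOXC. Within HOXC this did not extend to the 5′ end. HOXC13 there had a log2 fold change of -0.35, against -0.72 for HOXC4 at the 3′ end. Of the 38 members, 29 had enough reads to be tested, and 14 of these were lower and 2 higher in LV at an adjusted p under 0.05 (edgeR quasi-likelihood test, Benjamini-Hochberg over all 19255 genes tested). That is 48.3% lower and 6.90% higher, where 21.3% of all genes tested were lower and 17.5% higher, and 38.8% changed in either direction. The other 13 tested members did not pass, and 9 were not tested for lack of reads. Among the members called, HOXA13, HOXC12 and HOXA11 changed by at least 2-fold, all lower in LV. These are 3 of the 29 tested, a share near the 9.32% of all genes tested that were called that much lower. Another 4.49% of all genes tested were called that much higher, and no member was. HOXD9 had a log2 fold change of 1.01 but did not pass. In such bulk RNA, fewer cells with a transcript and less of it per cell cannot be told apart. The median log2 fold change was -0.35 over the 29 tested members and -0.0075 over all genes tested. In 19 of the 29 the LV and WT libraries did not overlap in CPM, while 54% of all genes tested showed no overlap. With WT replicate 2 left out, 31 members were tested, 17 were lower and 7 higher, where 31% and 28.8% of all genes were lower and higher; HOXA3, HOXA7, HOXC8 and HOXD8 were among those then also called higher, and HOXB7, HOXC5 and HOXC9 lower. With a correction for gene GC content 6 members were higher and 13 lower, where 35.2% and 23.1% of all genes were higher and lower.

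**Figure D1:**
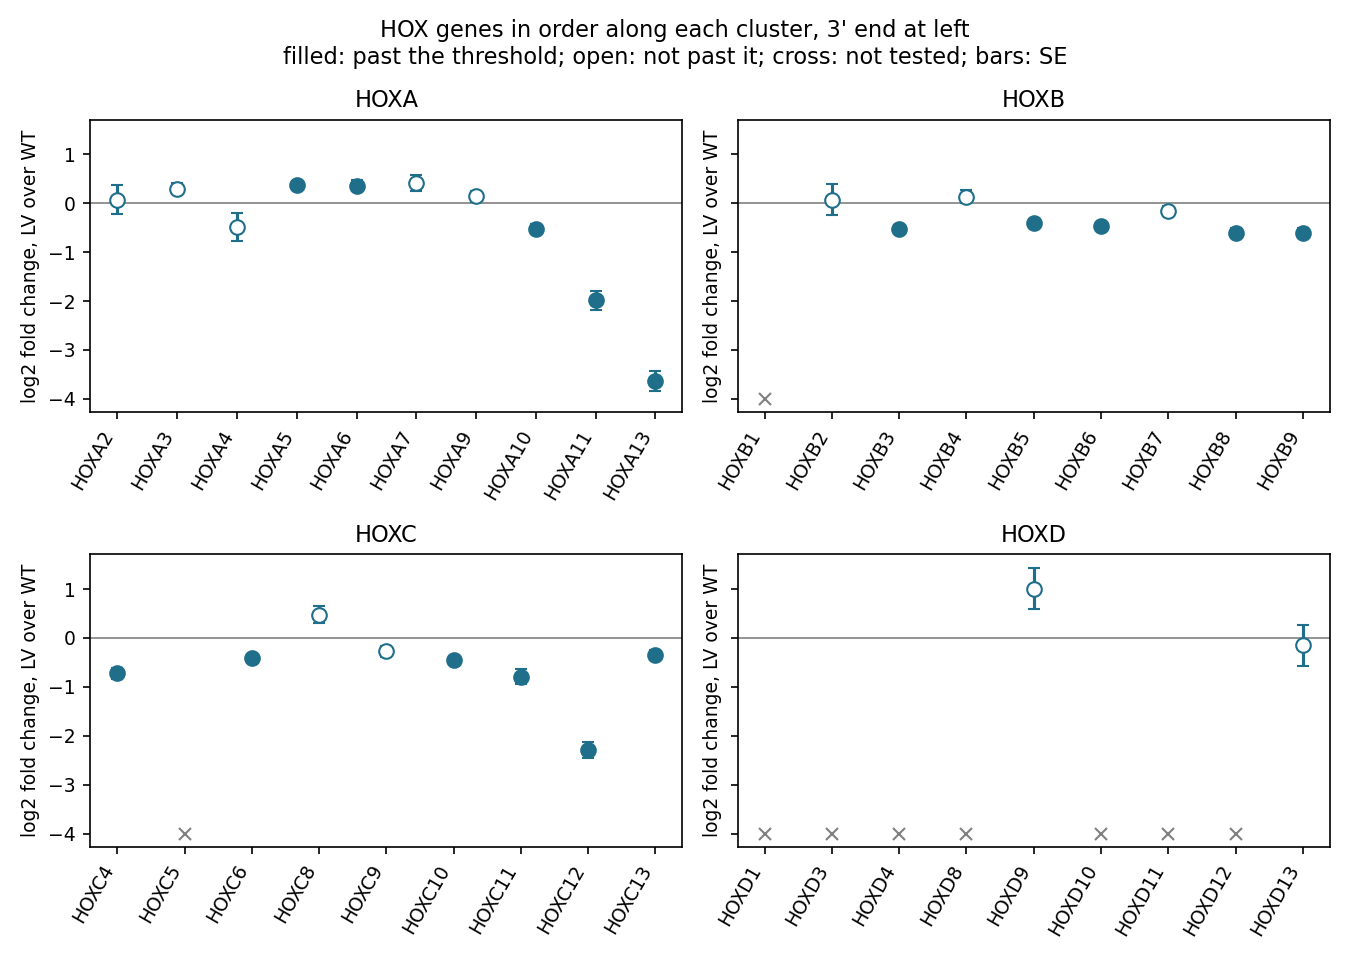
Log2 fold change of LV over WT for HOX genes in order along their clusters from the 3′ end at left; bars are the SE of the edgeR fit, filled points passed an adjusted p of 0.05, open points did not, and crosses at the bottom mark genes not tested. HOXA13 (-3.64), HOXA11 (-1.98) and HOXC12 (-2.30) lie far below the other members, and HOXA5 and HOXA6 are the filled points above 0.

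HOXA13, the gene at the 5′ end of the HOXA cluster, which patterns the digits and the urogenital tract, showed the largest decrease of all members. It had 0.459, 0.286 and 0.453 CPM in the LV libraries, against 5.91, 4.21 and 5.47 CPM in the WT libraries. Every LV library was far below every WT library, with a fitted decrease of 12.4-fold (log2 fold change -3.64, SE 0.21, adjusted p = 2.18e-06). The gene lies at chr7:27193503-27200106 on the minus strand (GRCh38) and shares no exonic base with another annotated gene. Its neighbour HOXA11 (chr7:27181510-27185223, minus strand), which acts in forearm and uterine development in mice, had 0.325, 0.358 and 0.3705 CPM in the LV libraries, against 1.44, 1.34 and 1.38 CPM in the WT libraries. The LV values lay close together and all below WT, 3.95-fold lower by the fit (log2 fold change -1.98, SE 0.20, adjusted p = 5.17e-05). The antisense gene HOXA11-AS covers part of HOXA11, 30.6% of its exonic bases being shared with the other strand, and the strand setting of the counting is not given in the sources used here. HOXA10, the next gene toward the 3′ end, known from uterine and male reproductive tract development, was more abundant per length, at 8.90 ± 0.667 TPM in LV where HOXA11 had 0.535 ± 0.0341 TPM (SD, n = 3 each), and changed less. It had 9.45, 8.62 and 10.1 CPM in the LV libraries, against 13.8, 12.4 and 14.3 CPM in the WT libraries, with no overlap between groups (log2 fold change -0.52, SE 0.0958, adjusted p = 0.00254). HOXA10 shares 26.3% of its exonic bases with other genes, chiefly HOXA10-AS. These 3 decreases held without WT replicate 2, at log2 fold changes of -3.76, -2.005 and -0.57.

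The decrease at this end was not limited to the HOX genes. HOXA11-AS had 0.153, 0.143 and 0.103 CPM in the LV libraries, against 0.946, 1.17 and 1.12 CPM in the WT libraries (log2 fold change -3.002, SE 0.28, adjusted p = 3.47e-05), and HOXA10-AS had 0.421, 0.751 and 0.288 CPM in the LV libraries, against 1.95, 1.497 and 2.46 CPM in the WT libraries (log2 fold change -2.12, SE 0.32, adjusted p = 0.000833). Both antisense RNAs were low and the groups did not overlap. HOXA11-AS shares exonic bases with HOXA11, and HOXA10-AS with HOXA9 and HOXA10, on the other strand. Since the strand setting is not given, whether some of their reads come from these genes was not tested. HOTTIP, a noncoding RNA at the 5′ tip of the cluster that in human fibroblasts supports the activity of the 5′ HOXA genes, had 0.0574, 0.179 and 0.0823 CPM in the LV libraries, against 0.7201, 0.484 and 0.436 CPM in the WT libraries (log2 fold change -2.49, SE 0.44, adjusted p = 0.00203). EVX1, a homeobox gene beyond HOXA13 that belongs to the even-skipped family, had 0.536, 0.286 and 0.576 CPM in the LV libraries, against 3.97, 4.23 and 3.83 CPM in the WT libraries (log2 fold change -3.02, SE 0.20, adjusted p = 4.07e-06). LV libraries were again far below WT libraries for EVX1. HOTTIP also did not overlap between groups but rests on few reads. It had 3, 5 and 4 counts in the LV libraries, against 35, 22 and 23 counts in the WT libraries. Further out on this side, HIBADH, a valine catabolism enzyme gene, averaged 75.8 ± 1.02 CPM in LV and 96.7 ± 4.42 CPM in WT and was lower by less (log2 fold change -0.35, SE 0.0688, adjusted p = 0.00326). Elsewhere in the cluster 2 noncoding RNAs were higher: HOTAIRM1, a noncoding RNA of the 3′ part of the cluster, averaged 2.97 ± 0.154 CPM in LV and 2.28 ± 0.211 CPM in WT (log2 fold change 0.39, SE 0.13, adjusted p = 0.0390), and HOXA-AS3, which runs antisense to the middle of the cluster, averaged 4.82 ± 0.233 CPM in LV and 3.48 ± 0.444 CPM in WT (log2 fold change 0.47, SE 0.12, adjusted p = 0.0142). HOTAIRM1 kept its call in 8 of 18 alternative analyses and HOXA-AS3 in 15 of 18, and HOXA-AS2 (log2 fold change -0.52, SE 0.19, adjusted p = 0.0551) did not pass.

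**Figure D2:**
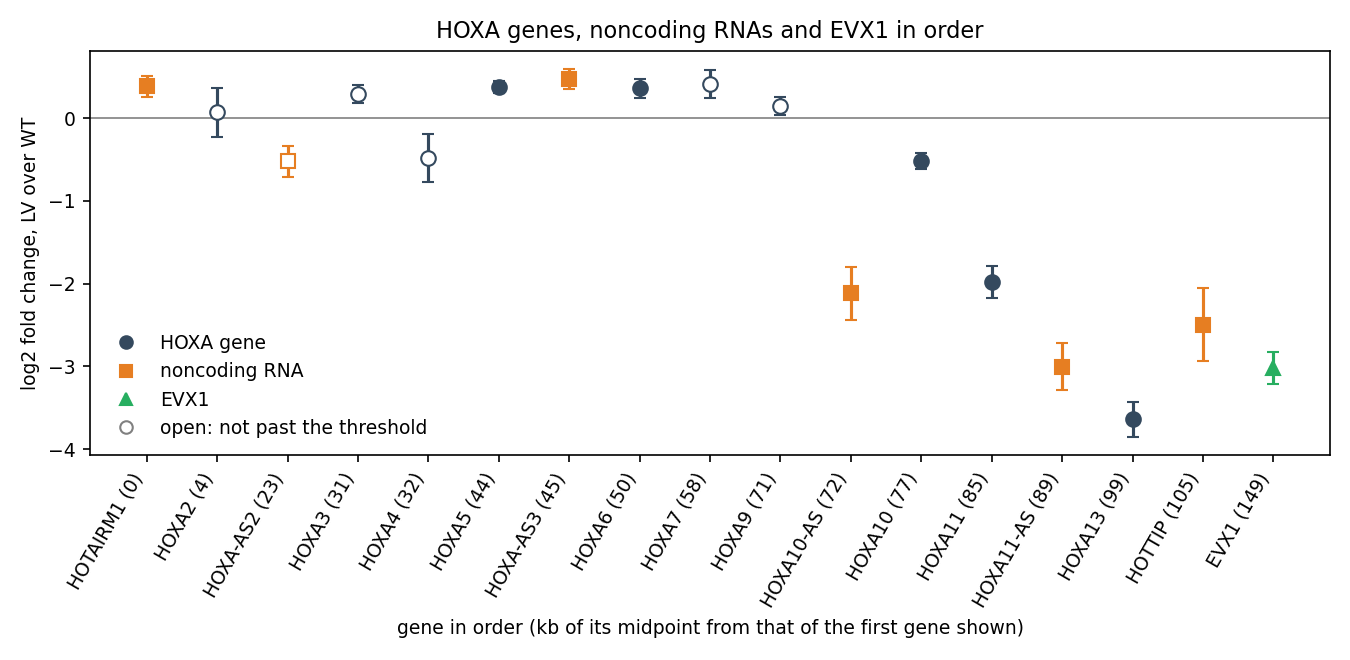
Log2 fold change of LV over WT for HOXA genes, noncoding RNAs of the cluster and EVX1, in gene order, with the distance of each midpoint in kb from that of the first gene shown; bars are the SE of the fit and open points did not pass the threshold. From HOXA10-AS to EVX1 every point lies below 0, and 6 of the 7 from HOXA10-AS on, all but HOXA10 (-0.52), are at least 2-fold lower.

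The bases before the RefSeq starts of HOXA13 and HOXA11 are shown because these neighbours decreased together, and those of HOXA6 because it changed the other way; 20 of the 38 members had a window in the RefSeq promoter table (GRCh38.p14), with 27 windows in all. Each sequence is the 250 bases before the start, written 5′ to 3′ on the minus strand of the gene, with CpG pairs in capitals.
HOXA13: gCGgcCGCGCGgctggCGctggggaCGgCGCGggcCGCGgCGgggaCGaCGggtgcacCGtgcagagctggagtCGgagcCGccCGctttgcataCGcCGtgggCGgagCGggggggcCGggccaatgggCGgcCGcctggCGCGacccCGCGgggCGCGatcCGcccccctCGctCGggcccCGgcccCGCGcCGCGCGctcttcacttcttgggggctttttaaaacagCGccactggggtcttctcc
HOXA11: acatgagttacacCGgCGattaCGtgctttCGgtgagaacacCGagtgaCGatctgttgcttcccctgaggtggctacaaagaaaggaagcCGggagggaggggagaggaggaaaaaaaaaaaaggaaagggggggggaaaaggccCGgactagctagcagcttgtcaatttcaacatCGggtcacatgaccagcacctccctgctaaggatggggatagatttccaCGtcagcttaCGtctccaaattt
HOXA6: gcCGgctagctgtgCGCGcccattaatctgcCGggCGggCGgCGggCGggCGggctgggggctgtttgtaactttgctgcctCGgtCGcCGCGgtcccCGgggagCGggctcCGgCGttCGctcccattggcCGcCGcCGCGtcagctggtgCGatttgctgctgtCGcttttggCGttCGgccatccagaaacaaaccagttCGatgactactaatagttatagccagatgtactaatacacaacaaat
The HOXA13 window (chr7:27200092-27200341) held 40 CpG pairs at 78.0% GC, and 97.8% of the 35116 windows in the table held fewer. The HOXA11 window (chr7:27185233-27185482) held 11 CpG pairs at 51.6% GC, the same number as the median window, and lies within HOXA11-AS. The HOXA6 window (chr7:27147775-27148024) held 27 at 62.0% GC. Both genes that decreased therefore had starts of very different CpG content. In the gene coordinates deposited with the counts, the HOXA13 gene begins 15 bases further upstream and its window lies within HOTTIP. The HOXA6 window lies inside a longer gene model there. None of the 3 windows matched TGATTNAT, a PBX-HOX composite motif, CCATAAA, a posterior HOX motif, AGGTCA, a nuclear receptor motif, or TATAAA, the TATA box, on either strand; CCATAAA and TATAAA share their last letters. TGATTNAT stood in 2 of the 27 member windows, those of HOXA2 and HOXD11, and in 2.48% of all windows. AGGTCA stood in none of the 27 and in 12.1% of all windows, CCATAAA in 1 (HOXD8) and 2.30%, and TATAAA in 5 and 10.7%.

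In the middle of the HOXA cluster HOXA5 and HOXA6 were higher in LV, by far less than HOXA13 and HOXA11 were lower. HOXA5, a regulator of lung and skeletal development, had 20.9, 20.6 and 20.6 CPM in the LV libraries, against 15.9, 15.7 and 16.3 CPM in the WT libraries. All LV libraries were above all WT libraries, 1.29-fold by the fit (log2 fold change 0.37, SE 0.0729, adjusted p = 0.00324), and this call held in all 18 alternatives. HOXA6 had 9.62, 10.4 and 9.798 CPM in the LV libraries, against 7.06, 9.05 and 7.12 CPM in the WT libraries, again without overlap, though WT replicate 2 lay close to the LV values (log2 fold change 0.36, SE 0.11, adjusted p = 0.0344). Its call was lost in 5 of the 6 analyses that left out 1 library, where the adjusted p reached 0.118, and was kept without WT replicate 2, and 40.1% of its exonic bases are shared with other genes, chiefly HOXA-AS3. Other HOXA genes did not pass. HOXA3 had 6.77, 6.58 and 6.79 CPM in the LV libraries, against 4.94, 6.28 and 5.27 CPM in the WT libraries (log2 fold change 0.29, SE 0.11, adjusted p = 0.0652). HOXA7 had 3.44, 3.65 and 2.45 CPM in the LV libraries, against 2.33, 2.62 and 2.16 CPM in the WT libraries (log2 fold change 0.41, SE 0.17, adjusted p = 0.0867). The LV libraries of HOXA3 were all above WT, while those of HOXA7 overlapped WT, and 62.5% of the exonic bases of HOXA7 are shared with HOXA-AS3. HOXA9, a gene of blood stem cells and a target of MLL fusions in leukaemia, had 6.87, 7.98 and 7.78 CPM in the LV libraries, against 6.995, 6.03 and 7.39 CPM in the WT libraries, and the groups overlapped (log2 fold change 0.14, SE 0.11, adjusted p = 0.347). HOXA4 had 0.6697, 0.859 and 1.297 CPM in the LV libraries, against 1.36, 1.67 and 0.966 CPM in the WT libraries (log2 fold change -0.49, SE 0.29, adjusted p = 0.226). HOXA4 rests on few reads and overlapped between groups. HOXA2 stayed under 1 CPM, with 0.440 to 0.858 CPM in LV and 0.514 to 0.606 CPM in WT.

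**Figure D3:**
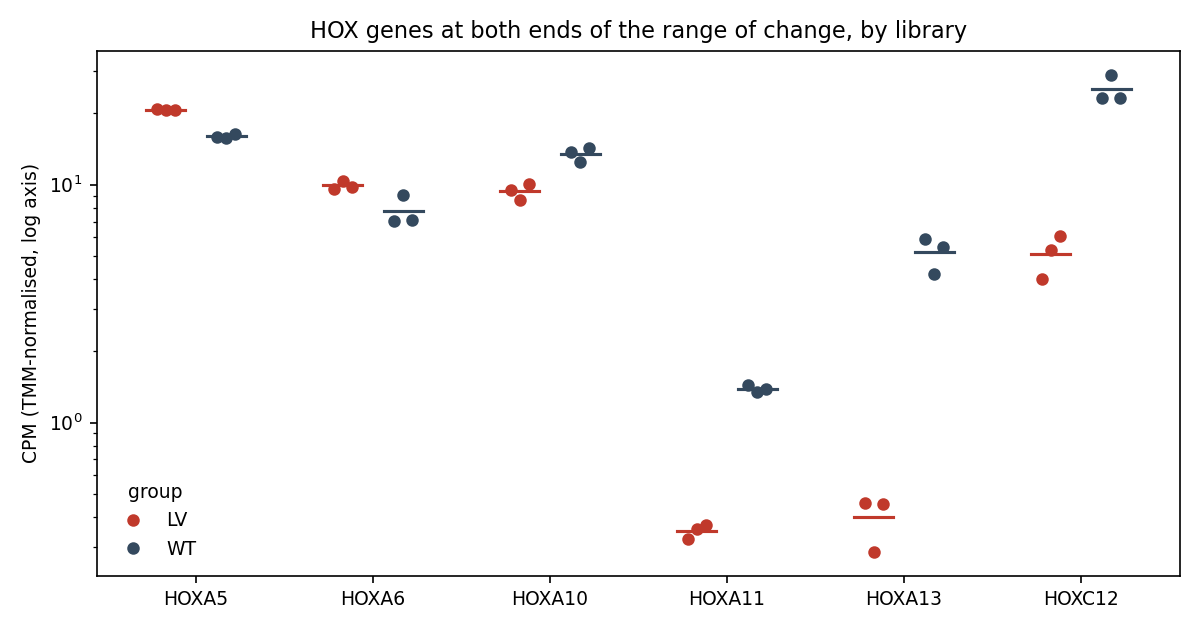
TMM-normalised CPM of 6 HOX genes in each library on a log axis, LV at left and WT at right of each pair, with lines at the group means. HOXA11, HOXA13 and HOXC12 show a wide gap between the groups, whereas HOXA5, HOXA6 and HOXA10 differ by far less.

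HOXB genes were lower in LV or did not pass, and none was called higher. Of 9 genes, 5 were lower, 3 did not pass and HOXB1 had no reads; the median log2 fold change of the 8 tested was -0.44. HOXB8, known from grooming behaviour and myeloid cells in mice, had 9.43, 9.84 and 11.5 CPM in the LV libraries, against 16.1, 16.3 and 14.3 CPM in the WT libraries (log2 fold change -0.60, SE 0.10, adjusted p = 0.00168). HOXB9, the 5′-most of the HOXB members described here, had 7.21, 6.51 and 7.84 CPM in the LV libraries, against 10.2, 11.7 and 10.9 CPM in the WT libraries (log2 fold change -0.60, SE 0.10, adjusted p = 0.00146). Each LV library of both genes was below each WT library. HOXB3, which overlaps HOXB4 and HOXB6 in its transcripts, had 6.03, 6.01 and 5.91 CPM in the LV libraries, against 8.56, 8.32 and 8.999 CPM in the WT libraries (log2 fold change -0.53, SE 0.0863, adjusted p = 0.00117). HOXB6 had 12.6, 13.1 and 13.2 CPM in the LV libraries, against 17.2, 19.03 and 17.3 CPM in the WT libraries (log2 fold change -0.46, SE 0.0815, adjusted p = 0.00176), and 32.9% of its exonic bases are shared with other genes, chiefly HOXB3 and HOXB-AS3. HOXB5 had 7.88, 7.33 and 7.801 CPM in the LV libraries, against 9.65, 10.99 and 9.98 CPM in the WT libraries (log2 fold change -0.41, SE 0.0905, adjusted p = 0.00630). These 3 genes too separated the groups, each with a decrease of less than 1.5-fold. HOXB7 had 11.7, 10.7 and 12.7 CPM in the LV libraries, against 13.2, 11.8 and 14.2 CPM in the WT libraries; the groups overlapped (log2 fold change -0.16, SE 0.10, adjusted p = 0.257). HOXB4, a regulator of blood stem cell growth, had 3.44, 3.68 and 3.97 CPM in the LV libraries, against 3.06, 3.81 and 3.24 CPM in the WT libraries and overlapped as well (log2 fold change 0.14, SE 0.13, adjusted p = 0.434). HOXB2 stood at 0.325 to 0.608 CPM in LV and 0.330 to 0.417 CPM in WT.

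Among HOXC genes 6 of 9 were lower, and the decrease of HOXC12 stood out. HOXC12, the last gene but one at the 5′ end (chr12:53954834-53958956, plus strand, GRCh38), had 3.999, 5.29 and 6.09 CPM in the LV libraries, against 23.2, 29.02 and 23.2 CPM in the WT libraries. The highest LV library lay far below the lowest WT library, and the fit put the decrease at 4.91-fold (log2 fold change -2.30, SE 0.16, adjusted p = 7.24e-06) and at -2.19 on the log2 scale without WT replicate 2; the gene shares no exonic base with another. HOXC13, its 5′ neighbour, known from hair and nail formation, had 8.25, 8.62 and 7.74 CPM in the LV libraries, against 10.2, 11.9 and 9.26 CPM in the WT libraries (log2 fold change -0.35, SE 0.11, adjusted p = 0.0331). The groups of HOXC13 did not overlap, but its call was lost in 4 of the 6 analyses that left out 1 library and under the GC correction, with an adjusted p of up to 0.133. On the 3′ side of HOXC12, HOXC11 had 1.78, 1.61 and 1.94 CPM in the LV libraries, against 3.703, 2.71 and 2.88 CPM in the WT libraries (log2 fold change -0.79, SE 0.16, adjusted p = 0.00419). HOXC10 had 17.4, 18.1 and 17.9 CPM in the LV libraries, against 24.7, 24.97 and 23.02 CPM in the WT libraries (log2 fold change -0.45, SE 0.0764, adjusted p = 0.00149). Both were lower in every LV library, by less than HOXC12. HOXC6, a gene reported at raised levels in prostate cancer, had 14.5, 14.8 and 14.2 CPM in the LV libraries, against 19.1, 20.02 and 18.9 CPM in the WT libraries (log2 fold change -0.42, SE 0.0759, adjusted p = 0.00217). HOXC4, at the 3′ end, had 5.78, 6.55 and 5.15 CPM in the LV libraries, against 9.77, 10.04 and 8.77 CPM in the WT libraries (log2 fold change -0.72, SE 0.11, adjusted p = 0.000966). LV and WT did not overlap for either gene, whose transcripts share exonic bases with each other. HOXC9 had 5.47, 5.01 and 4.41 CPM in the LV libraries, against 6.19, 5.99 and 5.85 CPM in the WT libraries (log2 fold change -0.28, SE 0.11, adjusted p = 0.0731). HOXC8 had 2.31, 2.11 and 2.51 CPM in the LV libraries, against 1.28, 1.83 and 1.91 CPM in the WT libraries (log2 fold change 0.47, SE 0.18, adjusted p = 0.0631). Neither passed, although no LV library overlapped WT, lower for HOXC9 and higher for HOXC8. HOXC5 was not tested, with 5 to 7 counts in LV and 9 to 20 counts in WT. HOTAIR, the noncoding RNA of this cluster that binds Polycomb proteins, averaged 0.833 ± 0.1505 CPM in LV and 1.58 ± 0.136 CPM in WT (log2 fold change -0.95, SE 0.19, adjusted p = 0.00396).

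HOXD genes were close to silent in both groups. No member exceeded 21 counts or 0.432 CPM in any library, and none of the 9 reached 1 CPM. HOXD1 and HOXD3 had 0 counts in all 6 libraries, as did HOXB1; a count of 0 allows up to 3 counts, or 0.0563 to 0.106 CPM depending on the library, which covers counting error only. HOXD9 had 20, 6 and 21 counts in the LV libraries, against 5, 7 and 14 counts in the WT libraries (log2 fold change 1.01, SE 0.43, adjusted p = 0.0938), and HOXD13, at the 5′ end and active in mouse prostate development, had 11, 5 and 21 counts in the LV libraries, against 18, 17 and 11 counts in the WT libraries (log2 fold change -0.15, SE 0.42, adjusted p = 0.811). The groups of both genes overlapped. HOXD8 had 10 to 14 counts in LV and 3 to 8 counts in WT and was not tested, and HOXD4, HOXD10, HOXD11 and HOXD12 had at most 2 counts in any library.

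Added up, HOXB and HOXC were lower in LV than in WT, while the HOXA sum overlapped between the groups in CPM and was slightly higher in LV in TPM. The HOXA sum was 59.95, 61.3 and 61.1 CPM in the LV libraries, against 60.9, 60.8 and 61.5 CPM in the WT libraries, which overlapped (log2 difference -0.0080, exact permutation p = 0.6, two-sided). In TPM it was 102.5 ± 1.71 in LV and 95.5 ± 2.20 in WT without overlap (SD, n = 3 each; log2 difference 0.10). Without HOXA5, the HOXA gene with the most reads, the log2 difference in CPM was -0.17 (exact permutation p = 0.1). The HOXB sum was 58.5, 57.7 and 63.2 CPM in the LV libraries, against 78.4, 82.3 and 79.4 CPM in the WT libraries (log2 difference -0.42). The HOXC sum was 59.6, 62.2 and 59.96 CPM in the LV libraries, against 98.5, 106.7 and 94.2 CPM in the WT libraries (log2 difference -0.72). HOXC12 alone averaged 5.13 ± 1.06 CPM in LV and 25.1 ± 3.37 CPM in WT. A large part of the HOXC difference, and of the ratios to HOXC below, therefore rests on this gene. With the HOXC12 values taken off, the HOXC sum stays lower in every LV library than in any WT library, but by less. The median log2 fold change was -0.43 over the 8 tested HOXC genes, against -0.44 over the 8 tested HOXB genes. Without HOXC10, the HOXC gene with the most reads, the log2 difference of the sum in CPM was -0.82 (exact permutation p = 0.1). HOXD summed to 0.980 ± 0.115 CPM in LV and 0.664 ± 0.0934 CPM in WT (SD, n = 3 each; log2 difference 0.56). No HOXD gene exceeded 21 counts in any library and none was called. The HOXD sum and the ratios that include it therefore rest on few reads. The HOXB, HOXC and HOXD sums each separated the groups, with an exact permutation p of 0.1, the smallest that 3 libraries against 3 allow. All 6 ratios between cluster sums, which compare clusters within a library, also separated the groups at that p, which stayed at 0.1 after adjustment over the 6. The ratio of HOXA to HOXB averaged 1.02 in LV and 0.763 in WT, that of HOXA to HOXC 1.003 in LV and 0.613 in WT, and that of HOXB to HOXC 0.987 in LV and 0.803 in WT. Once the HOXC12 values are taken off the HOXC sums, the HOXB to HOXC ratios of the LV and WT libraries overlap. The separation of that ratio therefore rests on HOXC12 rather than on the clusters as a whole.

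**Figure D4:**
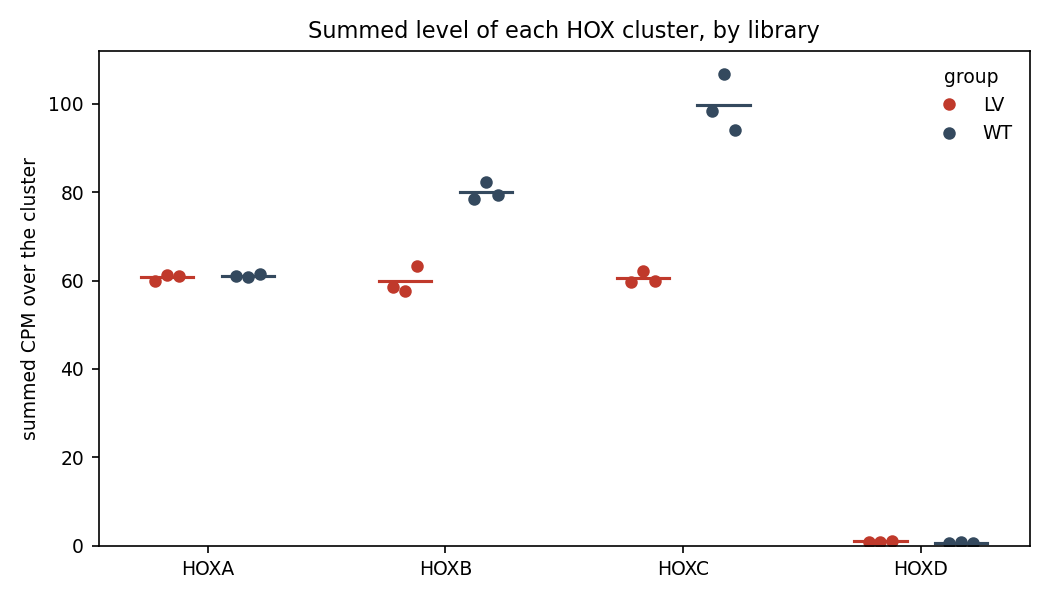
Summed TMM-normalised CPM of the members of each HOX cluster in each library, LV at left and WT at right, with lines at the group means. The HOXA sums of LV (59.95 to 61.3 CPM) overlap those of WT (60.8 to 61.5 CPM), and the HOXB and HOXC sums of LV lie below those of WT.

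On the per-length scale, which allows levels of different genes to be compared, HOX RNA summed to 278.7 ± 3.56 TPM in LV and 354 ± 3.61 TPM in WT (SD, n = 3 each). HOXA genes made up 36.8% ± 0.657 of it in LV and 26.98% ± 0.398 in WT, HOXB genes 32.9% ± 1.498 in LV and 35.2% ± 0.651 in WT, HOXC genes 29.7% ± 0.907 in LV and 37.5% ± 1.03 in WT, and HOXD genes 0.570% ± 0.0643 in LV and 0.313% ± 0.0381 in WT. In LV the most abundant member was HOXA5 at 42.6 ± 0.448 TPM, above HOXA6 at 27.2 ± 1.17 TPM without overlap. HOXA6, HOXB7 (26.8 ± 2.25 TPM) and HOXC10 (26.8 ± 0.525 TPM) followed, each overlapping the next, and then HOXB8 (17.6 ± 1.77 TPM) and HOXB6 (17.5 ± 0.420 TPM). In WT the order began with HOXC10 at 37.6 ± 1.35 TPM, above HOXA5 at 33.8 ± 1.98 TPM without overlap. HOXA5 overlapped HOXB7 (31.0 ± 4.07 TPM), which overlapped HOXB8 (27.4 ± 1.49 TPM), which in turn overlapped HOXC12 at 27.1 ± 2.41 TPM. HOXC12, the fifth member in WT, stood at 5.40 ± 1.10 TPM in LV. HOXA13 was low on this scale in both groups, with 0.276 ± 0.0674 TPM in LV and 3.71 ± 0.764 TPM in WT.

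**Figure D5:**
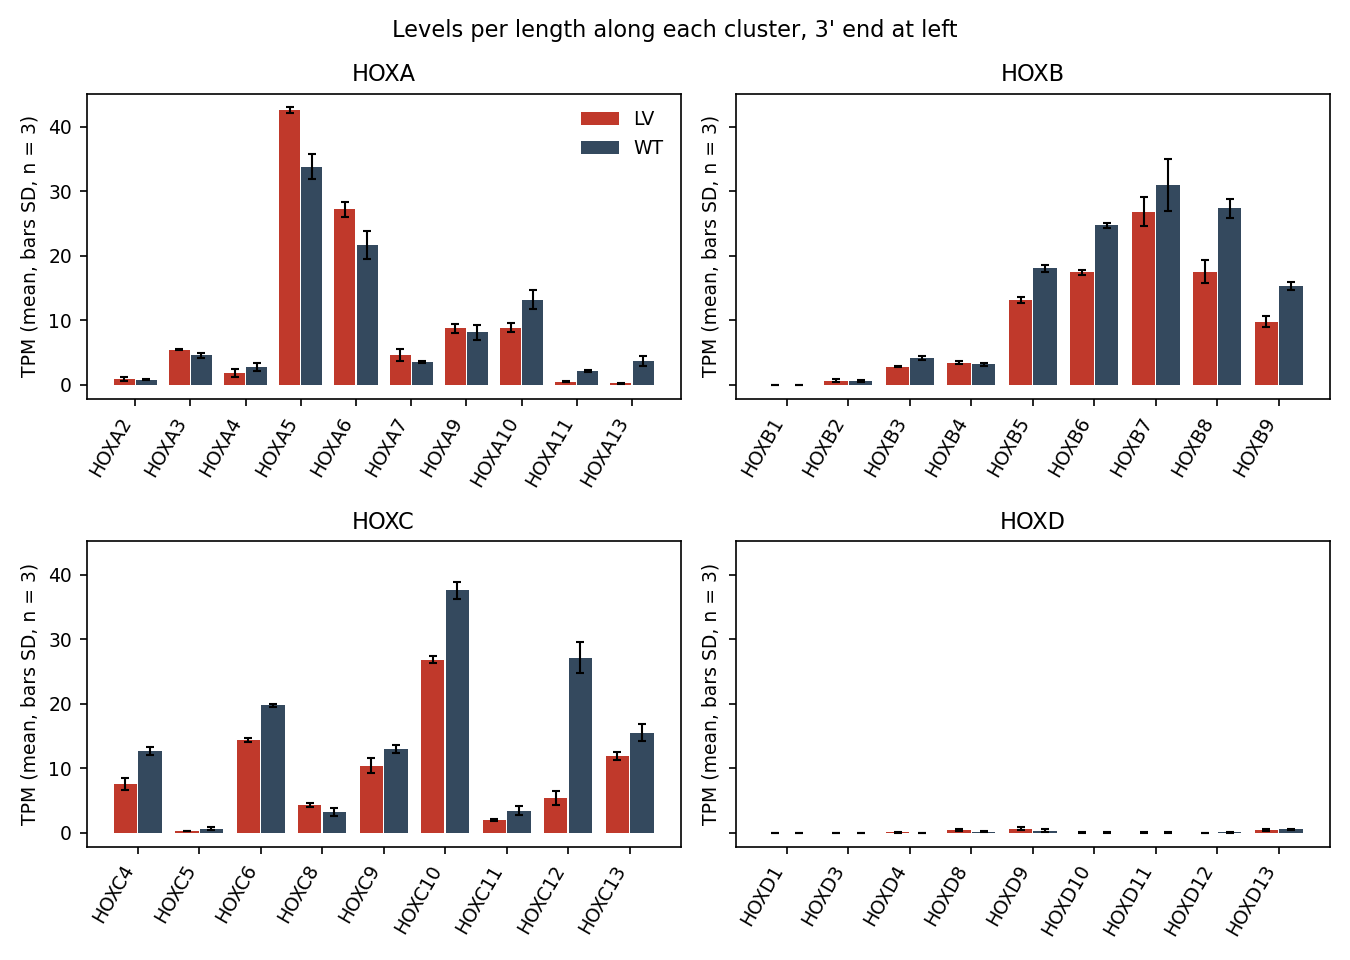
Mean level per length (TPM) of HOX genes in order along their clusters, 3′ end at left, LV at left and WT at right of each pair; bars are the SD over 3 libraries. HOXA5 in LV (42.6 TPM) and HOXC10 in WT (37.6 TPM) lead their groups, and HOXD genes stay near 0.

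Calls were counted by position along the clusters. Over all genes tested 21.3% were lower and 17.5% higher. By paralog group, 1 of 5 tested genes of groups 1 to 3 was lower and none higher, 5 of 12 of groups 4 to 8 were lower and 2 higher, and 8 of 12 of groups 9 to 13 were lower and none higher. The share lower in groups 1 to 3 (20.0%) and the share higher in groups 4 to 8 (16.7%) were thus near those of all genes. Within the HOXA cluster, none of the 7 genes up to HOXA7 was called lower and 3 of the 4 from HOXA9 on were. As a description, Spearman's rho between order from the 3′ end and log2 fold change was -0.57 over the 11 HOXA genes, -0.64 over 8 tested HOXB genes and -0.24 over 8 tested HOXC genes, and -0.38 between paralog group and log2 fold change over all 29; these points share the same 6 libraries, and neighbours share reads where exons overlap. HOXB13, which lies apart at the 5′ side of HOXB, was not a member, so the HOXB order ends at HOXB9. For levels, rho between position and mean TPM was -0.11 in LV and 0.33 in WT over 11 HOXA genes, and 0.82 in LV and 0.80 in WT over 9 HOXB genes. It was 0.18 in LV and 0.47 in WT over 9 HOXC genes, and 0.32 in LV and 0.71 in WT over 9 HOXD genes, whose levels are near 0. Between paralog group and mean TPM over all 38 members it was 0.095 in LV and 0.22 in WT.

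Paralogs were compared by their ratio within each library. There were 16 pairs of paralogs in which both genes were tested and reached 1 CPM. In 9 of the 16 the within-library ratio did not overlap between the groups. Each of the 9 had an exact permutation p of 0.1, the smallest possible, and 0.178 after adjustment over the 16 pairs. No pair passed, and none could have, because the smallest possible p lies above the threshold. Of all single genes tested, 54% showed no overlap in CPM between the groups. Ratios of other gene pairs were not tested, so the 9 pairs do not show a difference particular to paralogs. The log2 ratio of HOXA13 to HOXC13 averaged -4.39 in LV and -1.01 in WT, a difference of -3.38. That of HOXA5 to HOXB5 averaged 1.43 in LV and 0.65 in WT, and that of HOXA6 to HOXC6 -0.54 in LV and -1.33 in WT. HOXA10 and HOXC10 were both lower (log2 fold changes -0.52 and -0.45), and their log2 ratio overlapped between groups, at -0.92 in LV and -0.85 in WT.

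Among genes that work with the HOX clusters some were higher and some lower in LV, as were 17.5% and 21.3% of all genes tested. Of 12 TALE cofactors, 6 were higher, 2 lower, 3 did not pass and 1 was not tested, with a median log2 fold change of 0.50 over the 11 tested. The number lower was 4 without WT replicate 2 and 1 without WT replicate 1 or any single LV library. MEIS1, a HOX partner in blood and leukaemia, had 7.96, 6.55 and 7.72 CPM in the LV libraries, against 3.004, 2.73 and 3.03 CPM in the WT libraries (log2 fold change 1.35, SE 0.11, adjusted p = 2.2e-05). MEIS3 had 4.06, 4.72 and 5.37 CPM in the LV libraries, against 13.4, 16.6 and 12.7 CPM in the WT libraries (log2 fold change -1.59, SE 0.14, adjusted p = 2.93e-05). These 2 relatives thus moved in opposite directions, each without overlap. TGIF1, a TALE repressor, averaged 23.0 ± 1.52 CPM in LV and 13.6 ± 0.576 CPM in WT (log2 fold change 0.75, SE 0.0847, adjusted p = 0.000119), and PBX3 averaged 17.1 ± 0.487 CPM in LV and 11.7 ± 0.934 CPM in WT (log2 fold change 0.55, SE 0.0874, adjusted p = 0.00102). Of 26 Polycomb and Trithorax regulators 6 were higher, 3 lower and 17 did not pass, a share called near the 38.8% of all genes tested. Without WT replicate 2, 12 were higher and 5 lower, and under the GC correction 18 were higher and 4 lower. CBX7, a Polycomb subunit that binds methylated histone, averaged 31.7 ± 0.971 CPM in LV and 59.6 ± 7.94 CPM in WT (log2 fold change -0.91, SE 0.10, adjusted p = 0.000129), and KMT2A, the Trithorax-type methyltransferase also called MLL, averaged 65.5 ± 2.10 CPM in LV and 107 ± 8.64 CPM in WT (log2 fold change -0.71, SE 0.0801, adjusted p = 0.000136). EZH1, a Polycomb methyltransferase, averaged 34.4 ± 0.555 CPM in LV and 24.3 ± 1.81 CPM in WT (log2 fold change 0.50, SE 0.08096, adjusted p = 0.00110). EZH1, which was higher, and CBX7 and KMT2A, which were lower, each separated the groups.

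In the retinoid pathway 2 of 17 genes were higher, 3 lower, 6 did not pass and 6 were not tested, so that 5 of 11 tested were called, near the 38.8% of all genes. The number higher was 5 both without WT replicate 2 and under the GC correction. CRABP2, which carries retinoic acid to its receptors, had 5.97, 6.15 and 5.64 CPM in the LV libraries, against 52.5, 64.02 and 52.4 CPM in the WT libraries (log2 fold change -3.25, SE 0.11, adjusted p = 9.86e-08). CRABP1, a related binding protein, averaged 1.61 ± 0.127 CPM in LV and 6.84 ± 1.06 CPM in WT (log2 fold change -2.07, SE 0.15, adjusted p = 7.66e-06), and the receptor gene RARG averaged 27.3 ± 0.698 CPM in LV and 76.9 ± 9.25 CPM in WT (log2 fold change -1.50, SE 0.0966, adjusted p = 4.07e-06). ALDH1A1, an enzyme that makes retinoic acid, was higher, at 60.4 ± 2.07 CPM in LV and 20.3 ± 2.38 CPM in WT (log2 fold change 1.57, SE 0.0975, adjusted p = 3.18e-06). The caudal factors CDX1, CDX2 and CDX4, which activate HOX genes in embryos, had at most 1 count in any library and were not tested. Of 18 noncoding RNAs of the clusters, 2 were higher, 4 lower, 5 did not pass and 7 were not tested, against 17.5% higher and 21.3% lower over all genes tested. Leaving out LV replicate 3 or WT replicate 3 left none higher, and leaving out LV replicate 1, LV replicate 2 or WT replicate 1 left 1. Of 16 genes flanking the clusters, 3 were higher, 4 lower, 8 did not pass and 1 was not tested, so that 7 of 15 tested were called, near the share over all genes. Without WT replicate 2, 5 were higher and 8 lower, and under the GC correction 4 were higher and 7 lower. Beside EVX1 and HIBADH the lower ones were PRAC1 (log2 fold change -0.85, SE 0.10, adjusted p = 0.000203) and PRAC2 (log2 fold change -0.39, SE 0.0821, adjusted p = 0.00459), which lie at the 5′ side of HOXB and are known for RNA in prostate, rectum and colon. The higher ones at or above 1 CPM were CALCOCO1 (log2 fold change 0.44, SE 0.0869, adjusted p = 0.00360) and CALCOCO2 (log2 fold change 0.43, SE 0.0673, adjusted p = 0.000977), which lie outside HOXC and HOXB.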

How the data were processed

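RNA of 22Rv1 cells was sequenced as polyA-selected paired reads, per the labels' protocols. The submitters' processing notes name Trimmomatic 0.36, STAR 2.5.2b, the GRCh38 build and featureCounts from Subread 1.5.2; no annotation release or strand setting is given in the sources used here. Deposited by the authors were 6 files of raw gene counts and 1 table of TPM, which the counts and gene lengths gave again within a relative difference of 1e-04; its 391182 rows without a gene, where the column of WT replicate 2 holds other text, were left out. Gene symbols were repaired by identifier for 513 genes. Exon overlaps and gene positions came from the exon coordinates deposited with the counts, and GC content came from GENCODE 29 transcripts. The series design text names 3 conditions, of which 2 were analysed here.

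The count test was edgeR 4.0.16 in R 4.3.3 (filterByExpr, TMM, robust quasi-likelihood fit, group as the only term), with p-values adjusted by Benjamini-Hochberg over 19255 genes at a threshold of 0.05; the common biological coefficient of variation was 9.57%. Library totals of 28395265 to 53275252 counts set the precision, and levels under 1 CPM rest on few reads. Cluster sums and ratios were compared by exact two-sided permutation over libraries. Promoter windows came from RefSeq (GRCh38.p14), and the motifs searched in them were short sequences chosen here. Apart from genes not reported here, every member with at least 1 CPM in its higher group is given with its library values, and up to 4 members of each companion list, the largest changes past the threshold at 1 CPM or more; other genes named (the HOXA neighbours, PRAC2 and the cell type markers) were chosen after their values were seen. The members and lists were chosen with earlier results of these data known. The fits were tested on simulated counts. Alternatives were other scaling factors and filters, DESeq2 1.42.0, limma-voom and limma 3.58.1 on log2(TPM + 1) or log2(TPM + 0.1), a GC correction, a replicate block and leaving out each library. Same-numbered libraries did not deviate together (r = -0.05, -0.02 and 0.08), so the numbers were not used as pairs. No 2 libraries agreed within sampling noise.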

Additional observations from a re-analysis of the deposited data

How the results depend on the processing

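Of the 16 HOX calls, 14 were kept in all 18 alternatives; HOXA6 and HOXC13 lost theirs in 5 each. Of the 29 tested members, 26 kept their sign throughout, the exceptions being HOXA2, HOXB2 and HOXD13. Leaving out 1 library gave 1 to 7 higher and 13 to 17 lower members, the 7 and 17 without WT replicate 2, against 2 and 14. Over all genes the same step gave 2432 to 5714 higher and 3168 to 6156 lower, against 3375 and 4101, and over the companion lists (cofactors, noncoding RNAs, flanking genes, Polycomb and Trithorax, retinoid and caudal genes) 14 to 30 higher, against 19. The GC correction gave 6 higher and 13 lower members, 6781 higher and 4456 lower genes in all (60.4% of calls higher, against 45.1%) and 35 higher companion genes, with the median of all genes moved by 0.0895. TPM without a filter gave 12 higher companion genes. The cause of these moves was not tested. The HOXA sum difference turned positive with RLE factors (0.0024) and on TPM (0.10), and ranged from -0.014 to 0.0017 with 1 library left out. With the replicate block 2 members were higher and 14 lower, and 3169 genes higher and 3883 lower; paired by number, the HOXA sum difference stayed at -0.0080 (exact sign-flip permutation p = 0.5) and no pairing p could fall below 0.25. Depth limits the HOXD genes, HOXB2 and HOXC5, with at most 22 counts per library, and HOXB1, with 0.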
